A study of Mus musculus with 24 samples.

Results

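Smooth muscle contractile genes are described here as 10 genes: Acta2, Actg2, Tagln, Cnn1, Tpm1, Tpm2, Myh11, Myl9, Mylk and Des. They were taken by name and matched by gene identifier, and all 10 were among the 36528 gene models counted in each library. The libraries came from stromal cells sorted out of mouse Peyer's patches, the lymphoid organs in the wall of the small intestine. High endothelial venule (HEV) endothelial cells, which line the vessels through which lymphocytes enter, gave 6 libraries from mice that drank 10% (w/v) polyethylene glycol (PEG) freely for 3 days and 4 libraries from unperturbed control mice. Fibroblastic reticular cells (FRCs), the fibroblasts of the lymphoid scaffold, gave 7 PEG and 7 control libraries. The treatment was meant to lower fluid flow, 1000 cells were sorted per mouse, and nothing used here gives the strain or age of the mice or says whether FRCs and HEV cells came from the same mice. Libraries are named by group and by the number in their label.

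Contractile genes code for the force-producing apparatus of smooth muscle. Thin filaments of actin carry tropomyosin and calponin, thick filaments of smooth muscle myosin pull on them, and myosin light chain kinase starts contraction by phosphorylating the regulatory light chain. Many of these genes are driven by serum response factor with its partner myocardin through the CArG box, and several are also made by pericytes, by contractile fibroblasts and, at low levels, by other cells.

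The 24 libraries held between 12416032 and 21710946 counted reads, apart from HEV PEG library 16 with 3115003. Levels are CPM, the reads of a gene per 1000000 counted reads of its library. The sort labels were checked on marker genes. The summed level of 10 HEV and endothelial markers was 16774 to 26142 CPM in HEV PEG and 19221 to 24762 CPM in HEV control, against 108 to 259 CPM in FRC PEG and 116 to 596 CPM in FRC control. The 10 FRC and fibroblast markers summed to 66.5 to 124 CPM in HEV PEG and 62.5 to 598 CPM in HEV control, against 20331 to 30847 CPM in FRC PEG and 19932 to 33399 CPM in FRC control. Of the FRC markers, the chemokine gene Ccl19 did not exceed 1.55 CPM in any FRC library. Index pairs repeat after every 8 libraries, so that libraries 1 to 8 are called index set 1 here, 9 to 16 set 2 and 17 to 24 set 3. The labels do not say what these sets were. Libraries also carried epithelial RNA in unequal amounts, with summed levels of 10 epithelial markers of 17.6 to 2858 CPM in HEV PEG, 14.0 to 470 CPM in HEV control, 79.5 to 4163 CPM in FRC PEG and 45.2 to 1377 CPM in FRC control.

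The promoters of 4 members are shown because Acta2 and Myl9 lead the members in FRCs per gene length, while Tpm1 and Mylk come closest to FRC levels in HEV libraries. Each line gives the 250 bases upstream of the gene start in RefSeq annotation of GRCm38.p6, in lower case, with matches to the CArG box in capitals. The regions are chr19:34255374-34255623 on the minus strand for Acta2, chr2:156775214-156775463 on the plus strand for Myl9, chr9:67049214-67049463 on the minus strand for Tpm1 and chr16:34784700-34784949 on the plus strand for Mylk.
Acta2: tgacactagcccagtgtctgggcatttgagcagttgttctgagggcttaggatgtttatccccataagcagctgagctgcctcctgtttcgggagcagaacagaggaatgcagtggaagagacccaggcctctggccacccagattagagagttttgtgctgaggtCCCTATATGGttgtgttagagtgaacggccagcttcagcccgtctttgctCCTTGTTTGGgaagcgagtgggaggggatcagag
Myl9: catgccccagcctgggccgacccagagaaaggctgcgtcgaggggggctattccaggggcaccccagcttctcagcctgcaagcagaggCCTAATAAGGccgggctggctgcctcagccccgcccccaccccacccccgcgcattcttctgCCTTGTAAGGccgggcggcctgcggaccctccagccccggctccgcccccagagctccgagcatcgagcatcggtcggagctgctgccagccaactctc
Tpm1: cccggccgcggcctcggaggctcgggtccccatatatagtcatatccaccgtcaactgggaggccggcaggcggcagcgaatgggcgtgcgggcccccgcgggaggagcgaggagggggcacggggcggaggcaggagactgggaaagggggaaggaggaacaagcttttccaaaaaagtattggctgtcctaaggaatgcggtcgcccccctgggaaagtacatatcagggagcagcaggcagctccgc
Mylk: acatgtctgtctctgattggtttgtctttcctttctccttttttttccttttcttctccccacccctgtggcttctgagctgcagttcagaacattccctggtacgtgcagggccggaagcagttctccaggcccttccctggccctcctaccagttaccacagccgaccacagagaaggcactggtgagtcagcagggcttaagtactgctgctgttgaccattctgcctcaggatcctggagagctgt

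The CArG box reads the same on both strands and was searched in all 32851 promoters of this length. It was present without departure in 482 of them (1.47%), and in 1 of the 7 members found in the table, Myl9, as CCTAATAAGG beginning 161 bases before the start. With up to 1 departure in its run of A and T, 2823 promoters (8.59%) held a match, and so did 2 of these 7 members. Those further matches were CCTTGTAAGG at 99 bases before the start of Myl9 and CCCTATATGG and CCTTGTTTGG at 84 and 34 bases before the start of Acta2. The windows of Tpm1, Mylk, Tpm2, Cnn1 and Des held no such letters. Each of these members had 1 window, at its gene start, and any further start within a gene was not searched. No promoter of Tagln, Myh11 or Actg2 was matched. A match is a description of letters and not of binding.

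In FRC libraries all 10 members were at high levels in every library. These are bulk libraries, in which 10 pericyte markers summed to 921 to 1545 CPM in FRC PEG and 870 to 1414 CPM in FRC control. The part of other cells in the member reads was not tested. Because read counts scale with transcript length, members are ranked by the authors' deposited RPKM values, which carry the size factor of the library. By median RPKM Acta2 and Myl9 stood at the top and Mylk and Myh11 at the bottom, with the other 6 members between them. The gene lengths behind these values are not given here, and by CPM the order differs. In FRC PEG Tpm1 had a median of 1305 CPM against 805 CPM for Myl9, and Tagln had 221 CPM against 513 CPM for Mylk. In FRC PEG, Acta2, the vascular and general smooth muscle actin, had a median of 587 RPKM (range 399 to 646), and Myl9, the regulatory light chain that the kinase phosphorylates, had 541 RPKM (333 to 597). In FRC control these medians were 490 RPKM for Acta2 (352 to 637) and 511 RPKM for Myl9 (419 to 576). The ranges of these top members overlapped within each group.

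A middle tier followed. Tpm1, a tropomyosin also made in nonmuscle cells, had a median of 212 RPKM in FRC PEG and 214 RPKM in FRC control. Actg2, the enteric smooth muscle actin, had 206 RPKM in FRC PEG and 161 RPKM in FRC control. Calponin 1 (Cnn1) had medians of 128 RPKM in FRC PEG and 119 RPKM in FRC control, the second tropomyosin gene Tpm2 had 122 and 116 RPKM in FRC PEG and FRC control, and Tagln, the actin-binding transgelin, had 107 and 120 RPKM in FRC PEG and FRC control. Desmin (Des), the muscle intermediate filament protein, stood at 102 RPKM in FRC PEG and 134 RPKM in FRC control. The lowest medians belonged to the kinase gene Mylk, with 46.5 RPKM in FRC PEG and 87.7 RPKM in FRC control, and to the smooth muscle myosin heavy chain Myh11, with 42.6 RPKM in FRC PEG and 45.7 RPKM in FRC control. Neighbours in the middle tier did not separate, since their ranges over libraries overlapped. The tiers rest on medians and do not hold in every library. Tpm2 had 46.3 to 60.3 RPKM in the FRC libraries of index set 1 and 116 to 221 RPKM in those of sets 2 and 3. In FRC control 20, Mylk had 111 RPKM, above Tagln at 108 RPKM and Des at 101 RPKM.

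Cytoplasmic relatives of the members give a scale for these levels. Beta-actin (Actb) had a median of 1322 RPKM in FRC PEG and 1116 RPKM in FRC control, above Acta2 in each group. The muscle form was the higher of the pair for the heavy chain, where nonmuscle Myh9 had 15.3 RPKM in FRC PEG and 22.0 RPKM in FRC control. It was also the higher for the light chain, where Myl12a had 264 RPKM in FRC PEG and 316 RPKM in FRC control. These partners were chosen after their values were seen. Other nonmuscle genes of these families, such as Myh10 and Myl12b, were neither added to them nor compared in this way. For the intermediate filaments vimentin (Vim) exceeded Des, with 948 RPKM in FRC PEG and 1123 RPKM in FRC control. Actin coding sequences are alike (84.2% identity between Acta2 and Actg2, 82.8% between Acta2 and Actb, in GENCODE M21 transcripts). The longest exact run shared was 29 bases for Acta2 and Actg2 and 47 bases for Acta2 and Actb. Only uniquely mapped reads were counted, and how far this shifted the split between actin genes was not tested.

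**Figure D1:**
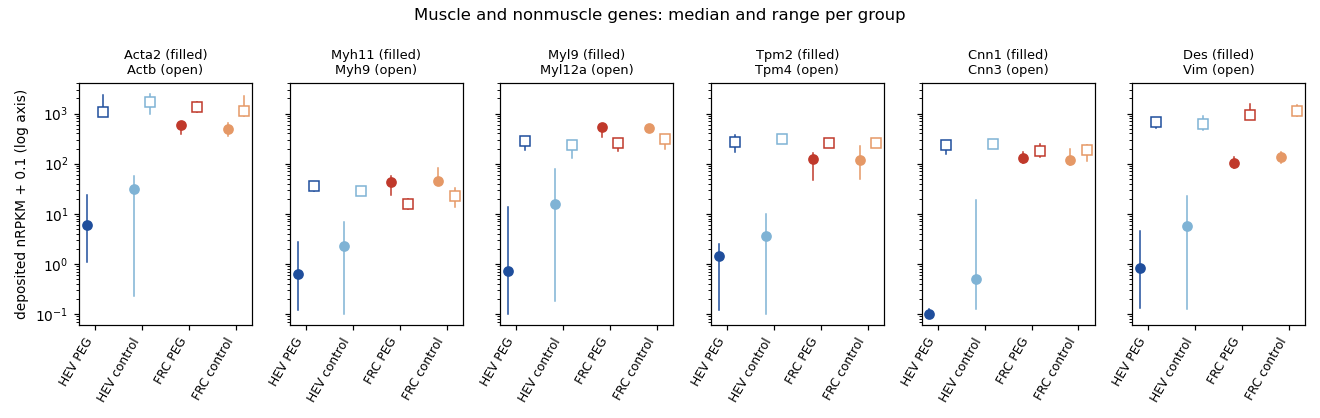
Median (marker) and range over libraries (line) of the authors' deposited RPKM plus 0.1, on a log axis, for 6 members (filled circles) and a nonmuscle gene of the same family or filament class (open squares), in HEV PEG, HEV control, FRC PEG and FRC control. In HEV groups every filled marker sits far below the open one. In FRC groups the gaps are smaller, and Myh11 and Myl9 sit above their counterparts.

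The median member varied less between FRC libraries than the median gene. Over genes with a mean of at least 5 CPM, the median coefficient of variation was 44.9% in FRC PEG and 47.7% in FRC control, whereas the median over the 10 members was 19.6% in FRC PEG and 22.7% in FRC control. Tpm1 varied least among controls at 10.3%, and Mylk varied least under PEG at 16.9%. Tpm2 varied most in each group, at 46.8% in FRC PEG and 58.4% in FRC control, above the median over all genes in each. Members were not compared with genes of like abundance.

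HEV libraries had less of all 10 members than FRC libraries. Under PEG 10 of 10 members fell below FRC at an adjusted p under 0.05 (edgeR quasi-likelihood test), against 14.4% of all 14991 genes tested, and under control conditions 10 of 10 did, against 14.2% of 15743 genes. No HEV library reached the lowest FRC library for any member. The share of all genes separated in this way was not computed. A member near 0 in HEV entered the test through its FRC level and could only be called lower. The median log2 fold change of HEV over FRC was -6.62 over the members under PEG (all genes -0.08) and -4.64 under control (all genes -0.16). In bulk libraries fewer cells of a type and less RNA per cell cannot be told apart.

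**Figure D2:**
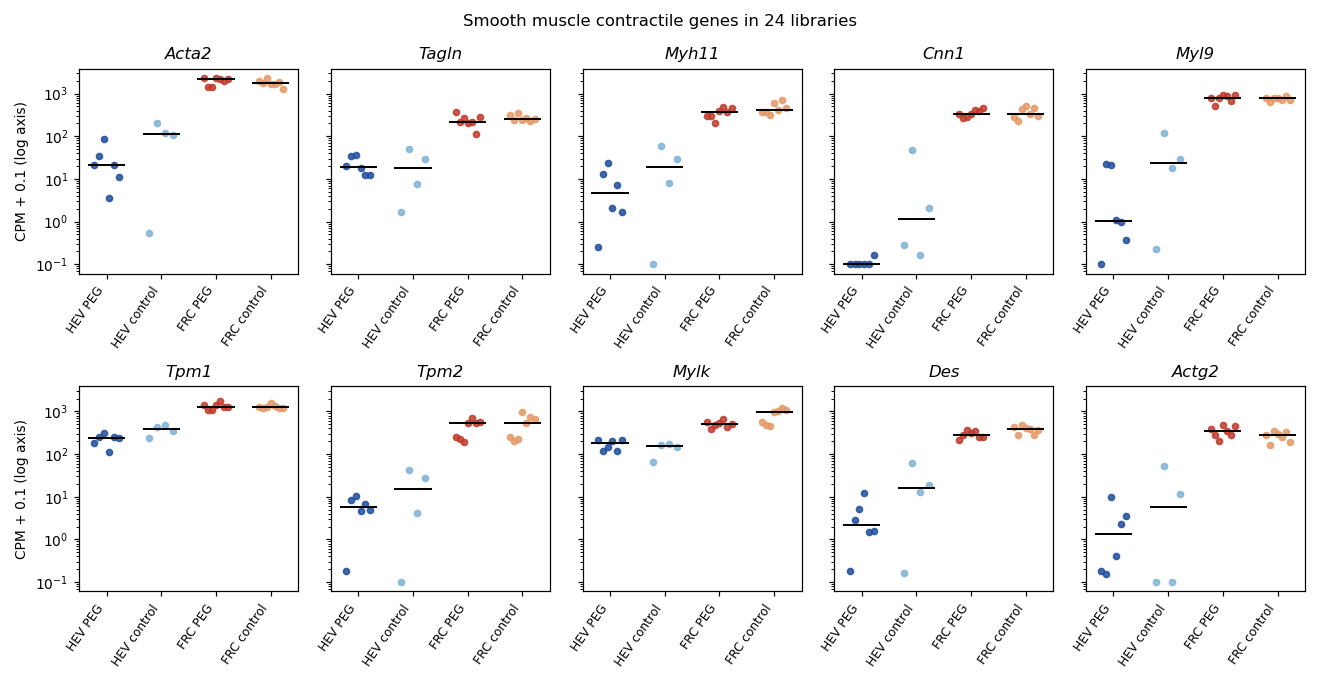
Level of each member in every library (points, CPM plus 0.1 on a log axis) with the group median (line), for HEV PEG, HEV control, FRC PEG and FRC control. In HEV libraries Tpm1 and Mylk lie closest to their FRC levels, and the other 8 members lie far lower and scatter widely.

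Tpm1 and Mylk were the members whose HEV levels lay closest to FRC levels. Tpm1 ran from 111 through a median of 245 to 315 CPM in HEV PEG and was 237, 422, 489 and 346 CPM in HEV control libraries 8, 9, 17 and 24, against 1057 to 1753 CPM in FRC PEG (median 1305) and 1192 to 1585 CPM in FRC control (median 1269). The Tpm1 log2 fold change of HEV over FRC was -2.61 ± 0.23 under PEG (edgeR, adjusted p = 1.7e-06) and -1.80 ± 0.20 under control (adjusted p = 4.4e-05). Mylk was 119 to 209 CPM in HEV PEG (median 178) and 66.3, 163, 173 and 150 CPM in HEV control libraries 8, 9, 17 and 24. In FRC PEG Mylk was 386 to 649 CPM (median 513), and in FRC control it was 458 to 1208 CPM (median 949). The Mylk log2 fold change of HEV over FRC was -1.56 ± 0.21 under PEG (adjusted p = 6.9e-05) and -2.73 ± 0.16 under control (adjusted p = 3.1e-07). Per length, Tpm1 led the members by group median, with 39.9 RPKM in HEV PEG and 64.5 RPKM in HEV control. It did not lead in every library. In HEV control 9 Myl9 had 76.5 RPKM against 71.2 RPKM for Tpm1, and in HEV PEG 16 Mylk had 20.1 RPKM against 19.3 RPKM.

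The actin-associated members were far lower in HEV libraries and uneven between them. Acta2 was 3.53 to 87.1 CPM in HEV PEG (median 21.2) and 0.443, 202, 116 and 107 CPM in HEV control libraries 8, 9, 17 and 24, against 1441 to 2334 CPM in FRC PEG (median 2227) and 1300 to 2298 CPM in FRC control (median 1792). HEV control 8 was thus near 0 while the other HEV controls were above every HEV PEG library. The Acta2 log2 fold change of HEV over FRC was -6.31 ± 0.65 under PEG (adjusted p = 1.3e-05) and -4.27 ± 1.14 under control (adjusted p = 0.021). Tagln was 12.2 to 35.3 CPM in HEV PEG (median 19.0) and 1.58, 50.6, 7.71 and 28.5 CPM in HEV control libraries 8, 9, 17 and 24. In FRC PEG Tagln was 113 to 378 CPM (median 221), and in FRC control it was 226 to 355 CPM (median 250). Tagln was present in all HEV PEG libraries and was the narrowest of the low members there, with a coefficient of variation of 47.4%.

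Cnn1 set the extreme. All 6 HEV PEG libraries together held 1 read of Cnn1, in library 23, and the 4 HEV control libraries held 861 reads, of which library 9 had 829. FRC PEG libraries held 42675 Cnn1 reads, which makes the level in FRC PEG 28116 times that in HEV PEG, with a 95% counting interval from 5046 to 1.11e+06. Such intervals cover counting error only, because PCR copies were counted without molecular identifiers. Actg2 was 0.0559 to 9.88 CPM in HEV PEG (median 1.27) and 0, 52.7, 0 and 11.5 CPM in HEV control libraries 8, 9, 17 and 24, against 206 to 471 CPM in FRC PEG (median 356) and 162 to 343 CPM in FRC control (median 275). The Actg2 call under control was the least secure of the 10, with an adjusted p of 0.045 in edgeR, and leaving out HEV control 8, 17 or 24 or FRC control 20 or 21 moved it to between 0.053 and 0.065. It was 0.059 without the covariate, 0.061 with the i5 index, 0.051 without HEV controls 8 and 9, 0.10 with libraries 10 to 24 alone and 0.35 with libraries 1 to 9 alone. Leaving out HEV control 17 moved the adjusted p of Acta2 under control to 0.0504 in the same edgeR test.

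Thick filament and intermediate filament members followed the same order. Myh11 was 0.160 to 22.9 CPM in HEV PEG (median 4.60) and 0, 57.8, 7.77 and 29.7 CPM in HEV control libraries 8, 9, 17 and 24, against 204 to 495 CPM in FRC PEG (median 375) and 323 to 717 CPM in FRC control (median 417). Myl9 was 0 to 21.7 CPM in HEV PEG (median 0.916) and 0.127, 116, 17.8 and 29.1 CPM in HEV control libraries 8, 9, 17 and 24. In FRC PEG Myl9 was 506 to 943 CPM (median 805), and in FRC control it was 618 to 892 CPM (median 768). Thus Myl9, at the top of the FRC levels per length, was near 0 in HEV PEG libraries 7, 16, 22 and 23. It had 21.7 and 20.7 CPM in HEV PEG libraries 14 and 15. Des was 0.0802 to 12.2 CPM in HEV PEG (median 2.10) and 0.0633, 62.5, 12.8 and 18.7 CPM in HEV control libraries 8, 9, 17 and 24, against 220 to 364 CPM in FRC PEG (median 283) and 287 to 475 CPM in FRC control (median 391). Tpm2 was 0.0802 to 10.4 CPM in HEV PEG (median 5.71) and 0, 42.8, 4.09 and 26.8 CPM in HEV control libraries 8, 9, 17 and 24, which sets it apart from the other tropomyosin gene Tpm1. The log2 fold changes of these 4 members lay between -8.72 and -6.32 under PEG and between -5.65 and -4.42 under control.

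Single libraries carried most of these reads in HEV control. Library 9 held 904 of the 1069 Actg2 reads, 1994 of 2676 Myl9 reads, 1072 of 1529 Des reads and 3467 of 6720 Acta2 reads. The 8 members other than Tpm1 and Mylk summed to 2.40 CPM in HEV control 8, 633 in 9, 166 in 17 and 253 in 24. In HEV PEG the same sum was 35.0 to 191 CPM and was highest in library 15, against 3543 to 5696 CPM in FRC PEG and 3908 to 5533 CPM in FRC control. The FRC and fibroblast marker sum was also highest in HEV control 9 at 598 CPM, against 62.5 to 89.3 CPM in the other HEV controls. In that library Col3a1 had 363 CPM and Dcn 63.5 CPM, while Pdgfra did not exceed 0.253 CPM and Pdpn 0.127 CPM in any HEV control. Pericyte markers summed to 98.5 to 188 CPM in HEV PEG and 87.7 to 207 CPM in HEV control, most of it Mcam, which endothelium also makes. Their defining gene Rgs5 had 1.69 to 60.4 CPM in HEV PEG and 12.5 to 29.8 CPM in HEV control, against 666 to 1259 CPM in FRC PEG and 585 to 1131 CPM in FRC control. The part of other cells in the member reads of HEV or FRC libraries was not tested.

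**Figure D3:**
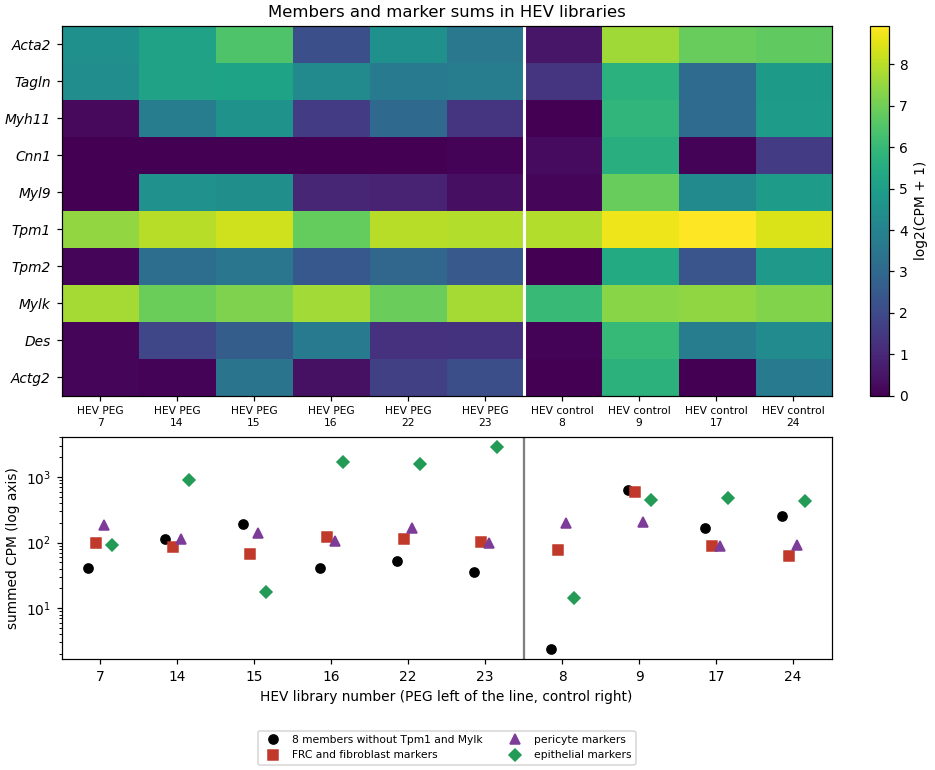
Members (rows) in each HEV library (columns, PEG left of the white line and control right) as log2(CPM + 1), above the summed CPM on a log axis of 8 members and of fibroblast, pericyte and epithelial markers in the same libraries. HEV control 8 is lowest and HEV control 9 highest in the sum of the 8 members (2.40 and 633 CPM), and Tpm1 and Mylk stay bright in every column.

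In FRCs, the comparison of PEG with control asked whether the members change when fluid flow is lowered. With all FRC libraries and the index set as covariate, 0 of 10 members passed, as did 0 of 14595 genes (0%), with edgeR. At an unadjusted p under 0.05 were 3 of 10 members (Mylk, Des and Myh11) against 6.78% of all genes. The DESeq2 Wald test called 55 genes and none of the members, and limma-voom called 0 genes. The median log2 fold change over members was -0.09 (all genes 0.01), with 6 members below 0 and 4 above. The 95% confidence intervals reached from -0.93 at the lowest, for Mylk, to 0.83 at the highest, for Actg2.

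**Figure D4:**
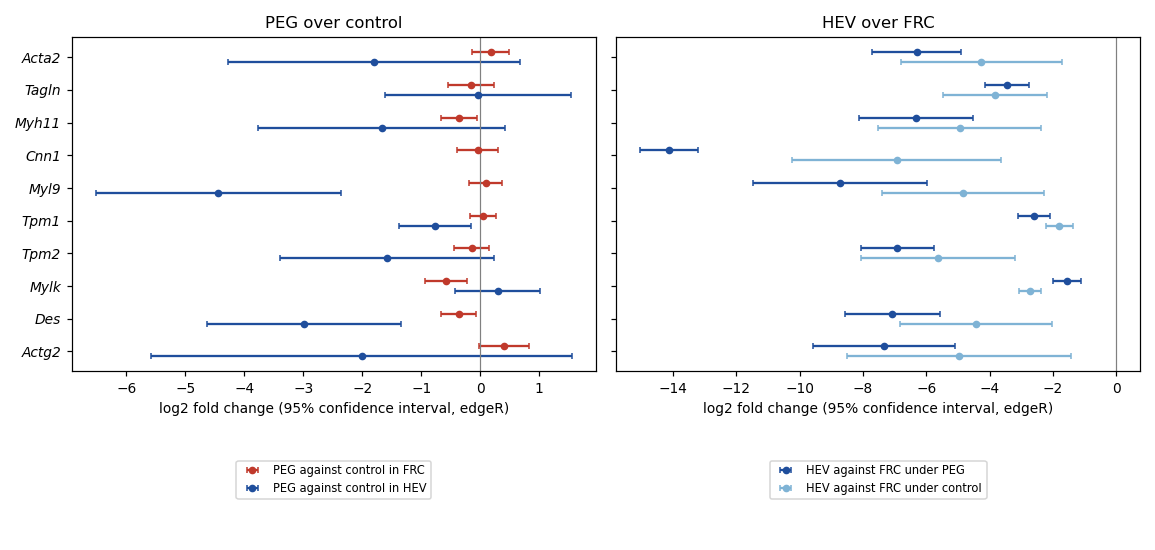
Log2 fold change (points) with 95% confidence interval (bars) from edgeR for each member: left, PEG over control in FRC and in HEV, where Cnn1 has no HEV value because it had too few reads; right, HEV over FRC under PEG and under control. The value of Cnn1 under PEG rests on 1 HEV read. All values on the right lie below 0, and intervals on the left are narrow in FRC and wide in HEV.

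Mylk was 556, 387, 486, 543, 649, 433 and 513 CPM in FRC PEG libraries 1, 2, 3, 10, 11, 18 and 19, against 571, 480, 458, 949, 1017, 1208 and 1092 CPM in FRC control libraries 4, 5, 6, 12, 13, 20 and 21. Its log2 fold change over all FRC libraries was -0.58 ± 0.17 (edgeR, adjusted p = 0.57). The gap stood in index sets 2 and 3, where Mylk averaged 535 ± 89.3 CPM in PEG and 1067 ± 111 CPM in control (SD, n = 4 each) with no overlap, and not in index set 1, where it averaged 476 ± 85.1 CPM in PEG and 502.8 ± 59.8 CPM in control (SD, n = 3 each). With a separate PEG effect for each side, a split chosen after seeing the data, the Mylk log2 fold change was -0.96 ± 0.16 in sets 2 and 3 (edgeR, adjusted p = 0.046), where 0.048% of genes were called lower. It was -0.06 ± 0.18 in set 1 (adjusted p = 0.99), where 0.00685% of genes were called in either direction. The difference between these effects was -0.90 ± 0.24 and did not pass (edgeR, adjusted p = 0.38), and 0.00685% of genes passed there. Because the split was chosen on these data, its p-values are a description, and a PEG effect that differs between the sets was not established. With libraries 10 to 24 fitted alone the adjusted p of Mylk was 0.17. The share of all genes without overlap between treatments in sets 2 and 3 was not computed.

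The FRC controls themselves differed between index sets. This is the same split, chosen after seeing the data, so p-values between sets are a description here as well. Mylk was higher in sets 2 and 3 than in set 1 among controls (log2 fold change 1.02 ± 0.17, edgeR adjusted p = 0.0025), a direction in which 4.09% of genes were called, and was 0.11 ± 0.17 among PEG libraries (adjusted p = 0.83). Tpm2 was higher in sets 2 and 3 in both treatments, by 1.33 ± 0.20 among PEG libraries (adjusted p = 0.0033, where 0.959% of genes were called higher) and by 1.61 ± 0.21 among controls (adjusted p = 0.00037). Tpm2 had 539 to 718 CPM in the PEG libraries and 530 to 979 CPM in the controls of sets 2 and 3, against 197 to 256 CPM and 207 to 250 CPM in PEG and control libraries of set 1. The i5 index follows treatment in part: in these sets control libraries 12 and 20, which carry the i5 index of all FRC PEG libraries, had 949 and 1208 CPM of Mylk, and controls 13 and 21, which carry the other, had 1017 and 1092 CPM. With the i5 index as a further covariate the Mylk log2 fold change of PEG over control was -0.68 ± 0.21 over all FRC libraries (edgeR, adjusted p = 0.79). What else differed between index sets cannot be told apart from the sets themselves.

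Acta2 went the other way from Mylk in sets 2 and 3. It averaged 2197 ± 151 CPM in PEG and 1628 ± 228 CPM in control there (SD, n = 4 each), with no overlap, and its log2 fold change of 0.47 ± 0.16 did not pass (edgeR, adjusted p = 0.36). As for Mylk, the share of all genes without overlap was not computed. In set 1 Acta2 averaged 1735 ± 494 CPM in PEG and 2031 ± 255 CPM in control (SD, n = 3 each), with overlap. Actg2 had 391.7 ± 86.6 CPM in PEG and 269 ± 63.2 CPM in control in sets 2 and 3, with overlap, and over all FRC libraries its log2 fold change was 0.40 ± 0.20 (adjusted p = 0.77). Des, at 220 to 364 CPM in FRC PEG against 287 to 475 CPM in FRC control, had all 7 PEG libraries below the control median of 391 CPM, with overlap. How many of all genes did so was not computed. The log2 fold change of Des was -0.36 ± 0.14 (adjusted p = 0.65). Myh11 had a like value of -0.36 ± 0.15 (adjusted p = 0.67). Tpm1, Myl9, Cnn1, Tagln and Tpm2 had log2 fold changes between -0.15 and 0.09.

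**Figure D5:**
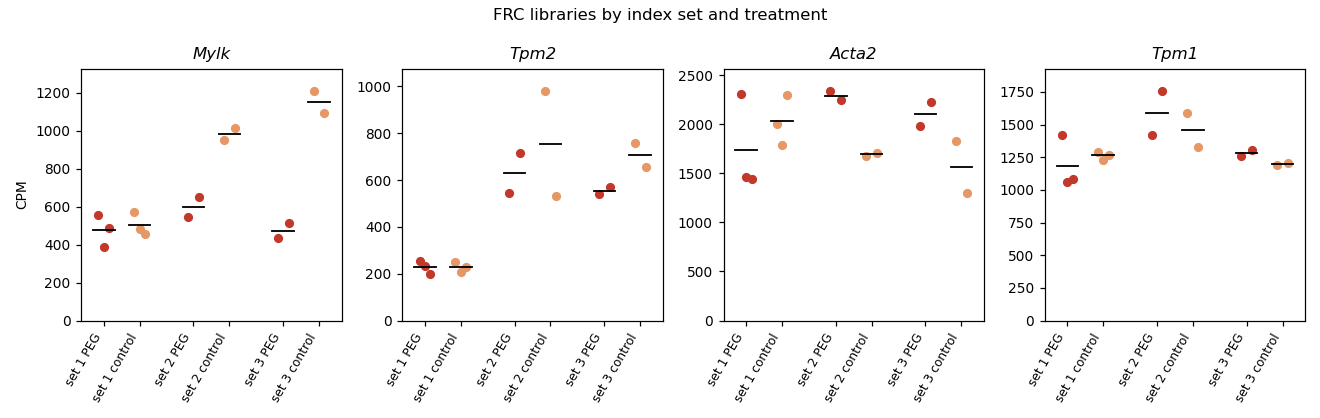
CPM of Mylk, Tpm2, Acta2 and Tpm1 in each FRC library (points) with the mean (line), by index set and treatment, PEG left of control within each set. Mylk in sets 2 and 3 runs from 433 to 649 CPM under PEG and from 949 to 1208 CPM in control, and Tpm2 is higher in sets 2 and 3 than in set 1 under either treatment.

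Epithelial markers were unequal between treatments in the same FRC libraries. Their median sum was 412 CPM in FRC PEG and 91.8 CPM in FRC control. A positive log2 fold change was found for 9 of 9 tested markers (median 1.94, all genes 0.01), none past the threshold in edgeR. At an unadjusted p under 0.05 were 4 of these 9, against 6.78% of all 14595 genes. Within set 3 the sums were 4163 and 2504 CPM in PEG libraries 18 and 19 and 1377 and 540 CPM in control libraries 20 and 21. Their part in the member values was not tested.

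In HEV libraries 0 of 9 tested members passed between PEG and control, as did 0 of 14308 genes (0%), with edgeR, and Cnn1 was below the count filter. At an unadjusted p under 0.05 were 3 of 9 members (Myl9, Des and Tpm1) against 6.19% of all genes. The DESeq2 Wald test called 116 genes, Myl9 and Des among them as lower under PEG, and limma-voom called 0 genes. Of the 9 members 8 had a negative log2 fold change, with a median of -1.67 (all genes 0.01). Myl9 had the largest, -4.45 ± 0.95 (adjusted p = 0.77), and its groups overlapped, with HEV controls 8 and 17 at 0.127 and 17.8 CPM and HEV PEG reaching 21.7 CPM. Des had -2.99 ± 0.75 (adjusted p = 0.77) and Tpm1 had -0.77 ± 0.28 (adjusted p = 0.79), with all 6 PEG libraries below the control median for each. The groups still overlapped. HEV control 8 had 0.0633 CPM of Des and 237 CPM of Tpm1, and HEV PEG reached 12.2 and 315 CPM of these genes. How many of all genes had every PEG library below the control median was not computed. Mylk had 0.30 ± 0.33 and Tagln -0.03 ± 0.72. The widest interval, for Actg2, ran from -5.58 to 1.56. Markers of other cells differed in the same libraries: 4 of 5 tested FRC and fibroblast markers had a negative log2 fold change (median -1.24), and 9 of 9 tested epithelial markers a positive one (median 1.65), none past the threshold in edgeR or at an unadjusted p under 0.05. Their part in the member values was not tested.

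Whether PEG acted differently in HEV than in FRC libraries was tested in 1 model of all 24 libraries. No member passed, whereas 2 of 18203 genes did (0.011%), and 5 of 10 members were at an unadjusted p under 0.05 against 10.1% of all genes. Cnn1 came closest, at -8.85 ± 1.65 (edgeR, adjusted p = 0.085), a fitted value that rests on 1 read in HEV PEG and on HEV control 9. Without HEV control 8 or without HEV control 17 it passed. Without HEV control 9 the value was -5.08 (adjusted p = 0.070), with libraries 10 to 24 alone -5.48 (adjusted p = 0.15) and with limma-voom -3.69 (adjusted p = 0.46). The differences of Tpm1 (-0.83 ± 0.28, adjusted p = 0.32) and Mylk (0.90 ± 0.34, adjusted p = 0.37) had opposite signs. The other 7 members had differences between -3.15 and -0.02.

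Other genes of the contractile program were read from lists. Of further smooth muscle structural genes, 14 of 19 tested were lower and 1 higher in HEV than in FRC under PEG, and 13 of 20 lower and 0 higher under control. Over all genes 14.4% were called lower and 12.5% higher under PEG, and 14.2% lower and 10.4% higher under control, and the lists that follow are read against these shares. Caldesmon (Cald1), the thin filament regulator and the most abundant of them in FRCs, had 32.5 ± 15.1 CPM in HEV PEG and 25.0 ± 8.20 CPM in HEV control, against 527 ± 94.2 CPM in FRC PEG and 659 ± 177 CPM in FRC control (SD, n = 6, 4, 7 and 7). Its log2 fold change was -4.18 ± 0.34 under PEG and -4.65 ± 0.34 under control (edgeR, adjusted p = 7.8e-07 and 1.5e-06). Cardiac-type calsequestrin (Casq2), a calcium store protein, and Kcnmb1, a subunit of the calcium-gated potassium channel, were also lower in HEV under control. Casq2 did not exceed 0.0695 CPM in HEV control, against 11.4 to 82.6 CPM in FRC control, and Kcnmb1 did not exceed 0.0633 CPM in HEV control, against 11.6 to 85.4 CPM in FRC control. Genes so near 0 in HEV entered the test through their FRC level and could only be called lower, here and in later lists. Filamin A (Flna), Filip1l and Pdlim3 were the next most abundant in FRC control, at 443, 361 and 276 CPM on average.

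Of 16 genes that control contraction, such as those of the RhoA and phosphatase branches, 3 were higher and 3 lower in HEV under PEG, and 1 higher and 3 lower under control. Over all genes 12.5% were higher and 14.4% lower under PEG, and 10.4% higher and 14.2% lower under control, so these counts are near the background. The phosphatase inhibitor gene Ppp1r14a was lower, by -2.59 ± 0.39 under PEG and -3.23 ± 0.42 under control. Phosphodiesterase 5 (Pde5a), which breaks down cyclic GMP, was lower by -3.91 ± 1.23 under PEG and -5.93 ± 1.08 under control. Both genes passed under each condition in edgeR.

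Among 12 transcriptional regulators of the program, 3 were higher and 2 lower in HEV under PEG, and 2 higher and 4 lower under control. The higher calls and the lower calls under PEG are few and near the shares over all genes (12.5% and 14.4% under PEG, 10.4% higher under control), and 14.2% of all genes were lower under control. Myocardin (Myocd), the cofactor of serum response factor, had 0 to 0.321 CPM in HEV PEG and 0 to 11.7 CPM in HEV control, against 32.3 to 172 CPM in FRC PEG and 39.1 to 238 CPM in FRC control. It passed as lower in HEV under each condition (edgeR, adjusted p = 4.1e-08 under PEG and 0.00085 under control). Fhl2, a LIM protein gene, was lower too, with 2.92 ± 4.85 CPM in HEV PEG and 2.51 ± 4.74 CPM in HEV control, against 305 ± 33.9 CPM in FRC PEG and 360 ± 80.1 CPM in FRC control (SD). Klf4, a repressor of the program, did not pass between cell types. The other cofactor Mkl2 ran the opposite way, with 355 to 553 CPM in HEV PEG and 243 to 531 CPM in HEV control, against 15.0 to 58.2 CPM in FRC PEG and 29.8 to 84.6 CPM in FRC control. The LIM protein gene Csrp2 was also higher in HEV, by 2.58 ± 0.30 under PEG and 2.56 ± 0.28 under control. Nkx2-3, a homeobox factor of gut and spleen stroma, was the most abundant regulator in FRCs and had 2545 ± 935 CPM in HEV PEG and 2476 ± 384 CPM in HEV control, against 2405 ± 486 CPM in FRC PEG and 3321 ± 1265 CPM in FRC control (SD). In FRC sets 2 and 3 Nkx2-3 had 2047 to 3424 CPM in PEG and 3631 to 4703 CPM in control, without overlap. It did not pass (edgeR, adjusted p = 0.096), and the share of all genes without overlap there was not computed.

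Of 10 receptors that drive contraction, 7 were tested between cell types. Under PEG 1 was higher and 5 lower in HEV, against 12.5% and 14.4% of all genes. Under control 1 was higher and 4 lower, against 10.4% and 14.2% of all genes. A receptor near 0 in HEV entered the test through its FRC level and could only be called lower. The endothelin receptor gene Ednrb had 4.81 to 227 CPM in HEV PEG and 3.89 to 22.4 CPM in HEV control, against 878 to 1495 CPM in FRC PEG and 1006 to 3639 CPM in FRC control. Agtr1a and Ednra, for angiotensin and endothelin, were lower too (edgeR, adjusted p = 1.9e-05 and 0.0049 under control). The receptor higher in HEV was the muscarinic Chrm2, at 5.21 to 36.6 CPM in HEV PEG and 4.64 to 64.7 CPM in HEV control. Of 14 nonmuscle counterparts of the members, 3 were higher and 4 lower in HEV under PEG, and 2 higher and 4 lower under control, against 12.5% higher and 14.4% lower of all genes under PEG and 10.4% and 14.2% under control. Tropomyosin 3 (Tpm3) was higher in HEV, by 1.73 ± 0.18 under PEG and 1.82 ± 0.29 under control, and nonmuscle myosin Myh10 was lower, by -3.80 ± 0.65 under PEG and -4.42 ± 0.54 under control (edgeR). None of these lists had a gene past the threshold between PEG and control in FRC or in HEV.

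Within FRCs the members did not move as 1 block. Across the 14 FRC libraries, Spearman's rho between a member and the mean standardised level of the other 9 was 0.76 for Cnn1, 0.73 for Myh11 and 0.72 for Tpm2, but 0.29 for Acta2, 0.08 for Des and 0.01 for Tagln. These correlations share libraries and index sets and are a description. The mean standardised level of the members was highest in FRC control 12 (0.78) and FRC PEG 11 (0.71) and lowest in FRC PEG 2 (-1.07). The genes outside the lists whose pattern was most like it over these 14 libraries, of 11565 compared, were 2210016L21Rik (rho 0.92), Tspo (0.91), Gm34854 and Macrod2 (0.88 each), Psmb5 and Chmp3 (0.87 each), Fibp and Sf3a3 (0.85 each).

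The counts carry no strand, and 3 members overlap other genes in GENCODE M21 (GRCm38). Tagln overlaps the antisense gene Gm48529 and shares 108 bases with Pcsk7, Mylk overlaps 3 antisense genes and Des overlaps Gm15179. The largest antisense gene at Mylk, E130310I04Rik, had 0.632 to 20.9 CPM in HEV PEG, 3.16 to 20.5 CPM in HEV control, 7.65 to 41.9 CPM in FRC PEG and 8.49 to 39.9 CPM in FRC control. These levels are below those of Mylk in every group. Pcsk7 had 44.1 to 106 CPM in HEV PEG and 31.3 to 94.2 CPM in HEV control, against 8.91 to 45.1 CPM in FRC PEG and 6.94 to 39.6 CPM in FRC control. It was thus above Tagln in every HEV PEG library and below Tagln in every FRC library, and how reads in the shared bases were assigned is not given in the sources used here. Levels of Gm48529 were not analysed here, so the Tagln values in HEV libraries are uncertain.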

How the data were processed

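Polyadenylated RNA of sorted cells was sequenced as read pairs, 1 library per file. Per the labels' protocols, template-switched cDNA was amplified and tagged with a transposase, and reads of low quality, ribosomal and adapter reads were removed. GSNAP and the mouse build mm9 are named in the submitters' processing notes. The protocol text names a human build, and versions and the gene annotation are not given in the sources used here. Per the file headers, the authors deposited a raw read count and an RPKM value for each gene model. For the members the authors' deposited RPKM was checked to be the count over the size factor in the labels, times a constant of the gene. Counts were used for tests and CPM, and RPKM for levels between genes.

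Symbols from RefSeq (GRCm38.p6) named 85.0% of the gene models, which held 97.3% of the reads. The members and lists were chosen with earlier results of these data known. Besides the 10 members, genes named were the up to 3 of smallest p per list in a comparison with calls, the up to 4 structural and regulator genes of highest mean CPM in FRCs, and the 8 of most similar pattern with at least 5 CPM. A gene that this rule names is not reported here. The nonmuscle genes set beside members per length, and the fibroblast and pericyte markers named, were chosen after their values were seen.

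Counts were filtered (filterByExpr, minimum 10), scaled by TMM and tested across all genes with the two-sided, robust quasi-likelihood F test of edgeR 4.0.16 (limma 3.58.1, R 4.3.3), with the index set as covariate and Benjamini-Hochberg adjustment, called under 0.05. Values after ± are SE for log2 fold changes and SD for levels. Only the 2 groups compared entered a fit, and all 24 libraries entered the test of the difference. Scripts were tested on simulated data. Alternatives were other size factors, filters, DESeq2 1.42.0, limma-voom, other covariates, libraries 1 to 9 or 10 to 24 alone, all libraries in 1 model, pseudocounts and each library left out. The fit by index set in FRCs and the fit without HEV controls 8 and 9 were added after seeing the data. The labels do not say that libraries of a group came from separate mice beyond 1000 cells per mouse, so p-values measure the spread between libraries. FRC and HEV libraries may share mice and were treated as independent.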

Additional observations from a re-analysis of the deposited data

Results flagged for a closer look

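Of 40 combinations of a member and a group, 5 held a library set apart from the rest of its group by more than Dixon's 95% limit. Chance gives about 1 in 20 only for independent, normal values. These CPM values are skewed, some are 0, and members share libraries, so the 5 of 40 is not read as an excess. In HEV PEG library 15, Acta2 stood at 87.1 CPM, with the next library at 34.2 CPM, and Actg2 at 9.88 CPM, with the next at 3.46 CPM. In HEV control library 9, Cnn1 stood at 48.3 CPM, with the next at 1.95 CPM. The single Cnn1 read of HEV PEG, in library 23, gave 0.0692 CPM against 0 in the other libraries. A single read in a group otherwise at 0 always passes this limit, so this 1 of the 5 carries no information about that library. In FRC control library 12, Tpm1 stood at 1585 CPM, with the next at 1326 CPM.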

How the results depend on the processing

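The finding that HEV libraries held less of the members than FRC libraries kept its direction for all 10 members under each alternative run, under PEG and under control. Under PEG 10 of 10 members passed throughout. Under control 8 to 10 passed as single libraries were left out, 9 without the covariate, with the i5 index or with libraries 10 to 24 alone (Actg2 lost), 9 passed without HEV controls 8 and 9, and 2 passed (Tpm1 and Mylk) with libraries 1 to 9 alone, which leave 2 HEV libraries, 8 and 9. The mean log2 level of the members in HEV PEG minus FRC PEG was -5.60, and was -6.38 with a pseudocount of 0.1 and -4.23 with a pseudocount of 10.

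Members called between PEG and control depended on the test. In FRC 1 member passed without a filter (Mylk). In HEV 3 passed without a filter, 2 with DESeq2 and 1 (Cnn1) with all 24 libraries in 1 model. For the difference of effects 1 member, Cnn1, passed without a filter, with DESeq2 and without the covariate, and between 0 and 1 as single libraries were left out. Without a filter 177 genes passed in FRC, 141 in HEV and 38 for the difference. With DESeq2 55, 116 and 350 passed there, and with all 24 libraries in 1 model 18 passed in HEV. Among controls 3869 genes passed between HEV and FRC, but 2276 with libraries 10 to 24 alone, 1477 with libraries 1 to 9 alone and 2057 without HEV controls 8 and 9. For the difference 5 genes passed without the covariate, 0 with limma-voom, with the i5 index or with libraries 10 to 24 alone, and 1 to 16 as single libraries were left out. Where no value or the smaller number of libraries shows it, the cause was not tested.

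Some fold changes turned sign. In FRC, Myl9 became -0.015 with the i5 index, Cnn1 0.0024 with libraries 10 to 24 alone, and Acta2 -0.21, Myl9 -0.031, Tpm1 -0.081 and Tpm2 0.013 with libraries 1 to 9 alone. In HEV, Actg2 became 0.75 with limma-voom and Mylk -0.042 with libraries 10 to 24 alone. For the difference, Tagln became 0.021 with DESeq2 size factors, 0.020 with the submitters', 0.014 with a minimum of 50, 0.019 with DESeq2, 1.15 with limma-voom, 0.11 without covariate, 0.087 with the i5 index and 0.13 with libraries 10 to 24 alone. As single libraries were left out, Cnn1 ran from -0.12 to 0.064 and Tpm1 from -0.015 to 0.085 in FRC, Tagln from -0.70 to 0.58 and Mylk from -0.059 to 0.51 in HEV, and Tagln from -0.45 to 0.69 for the difference. The i5 index was not fitted for HEV against FRC under PEG, where it follows cell type, and libraries 1 to 9 alone were not fitted where HEV PEG enters. No paired analysis was possible because each library number belongs to 1 library and no number is shared between groups.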

Other observations

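Striated muscle genes were low beside the smooth muscle members. The 10 genes of that list summed to 0.852 to 16.6 CPM in HEV PEG and 1.84 to 29.0 CPM in HEV control, against 79.6 to 193 CPM in FRC PEG and 77.6 to 175 CPM in FRC control. Most of the FRC sum was Actc1, the cardiac actin, which averaged 83.3 ± 39.8 CPM in FRC PEG and 90.1 ± 34.2 CPM in FRC control (SD, n = 7 each). Of 5 tested genes, 3 were lower in HEV than in FRC under PEG (Actc1, Tnnt3 and Tnni2) and 2 under control (Actc1 and Tnnt3), in edgeR, where 14.4% and 14.2% of all genes were lower under PEG and under control. The HEV controls held 264 Actc1 reads, of which library 9 had 263.

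Genes that mark other cells of the gut wall moved in both directions. Of 3 markers of interstitial cells of Cajal, the receptor gene Kit was higher in HEV, at 35.6 to 164 CPM in HEV PEG and 21.0 to 114 CPM in HEV control, against 0 to 5.18 CPM in FRC PEG and 0.0588 to 2.02 CPM in FRC control. Etv1 was lower in HEV under PEG and under control, and Ano1 was lower under PEG and did not pass under control (edgeR, adjusted p = 0.043 and 0.14). Mesothelial markers summed to 0.0501 to 0.321 CPM in HEV PEG and 0.0583 to 0.347 CPM in HEV control, against 0.118 to 54.3 CPM in FRC PEG and 0.246 to 25.8 CPM in FRC control. The 8 markers of enteric glia and neurons summed to 21.7 to 74.0 CPM in HEV PEG and 3.16 to 37.5 CPM in HEV control, against 6.03 to 58.1 CPM in FRC PEG and 0.161 to 81.9 CPM in FRC control. The 10 leukocyte markers summed to 200.2 to 415 CPM in HEV PEG and 240.2 to 591 CPM in HEV control, against 52.0 to 369 CPM in FRC PEG and 49.4 to 205 CPM in FRC control. None of these genes passed between PEG and control in FRC or in HEV.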
